A study of Mus musculus with 9 samples.

Results

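The genes described here encode signals that muscle releases during exercise or that act between muscle and heart, together with receptors for some of them. They are Fndc5, Il15, Metrn, Metrnl, Apln, Aplnr, Ucn2, Crhr2 and Nampt. They were taken as a list of names, chosen with earlier results of these data known. All 9 were found among the 24537 gene names of the table that compares sham quadriceps with sham heart. They made up 13 of its 35745 RefSeq transcripts. Il15 was listed there with 2 transcripts and Crhr2 with 4, whose counts were nearly the same because reads were counted on each transcript they overlap, so 1 transcript per gene is given. The table that compares quadriceps after transverse aortic constriction (TAC) with sham quadriceps is restricted to 587 genes with an extracellular annotation. It holds 4 of the genes, Il15, Metrn, Ucn2 and Nampt. It does not hold every secreted factor, since Apln and Metrnl are absent, and why they are absent was not tested. For Fndc5, Metrnl, Apln, Aplnr and Crhr2 the effect of TAC was not analysed here.

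RNA sequencing was done on tissue of C57Bl/6J mice that were, by the labels, 8 weeks old at surgery and were studied 12 weeks later. TAC ties the aortic arch around a 27 gauge needle and loads the left ventricle with pressure, and it serves as a model of heart failure with muscle wasting, whereas sham mice were operated without the constriction. The groups were 3 sham heart, 3 sham quadriceps and 3 TAC quadriceps libraries, and no genetic change or drug was part of any group. The study asked which secreted factors of skeletal muscle change in this model. The labels do not tie heart and quadriceps samples to individual mice. Their extraction text names quadriceps for the heart samples too, so the tissues were checked against markers.

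Fndc5 is a membrane protein of muscle from which the hormone irisin is cut, and its transcription responds to the coactivator encoded by Ppargc1a. Interleukin-15 is a cytokine for lymphocytes that is made in many tissues, skeletal muscle included. Meteorin and meteorin-like are related secreted proteins. Apelin is a peptide hormone whose receptor, Aplnr, is abundant on endothelial cells, and signaling through it widens vessels and strengthens the beat of the heart. Urocortin 2 is a peptide of the corticotropin-releasing factor family and binds selectively to the type 2 receptor, Crhr2, which heart and skeletal muscle carry. Nampt makes the nicotinamide mononucleotide from which cells rebuild NAD, and it is also found outside cells, where it has been called visfatin.

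On the mouse build GRCm38 (mm10), Fndc5 lies at chr4:129136999-129144593 on the plus strand, Metrnl at chr11:121701544-121716306 on the plus strand and Aplnr at chr2:85136225-85139923 on the plus strand. Apln lies at chrX:48025146-48034853 on the minus strand, Crhr2 at chr6:55090049-55133016 on the minus strand, Ucn2 at chr9:108986010-108987164 on the plus strand and Il15 at chr8:82331632-82403222 on the minus strand. No other annotated gene overlaps these 7. Nampt, at chr12:32819545-32853349 on the plus strand, shares its span with Gdap10 on the same strand, which reaches none of the exons of Nampt. Metrn, at chr17:25793221-25797136 on the minus strand, overlaps AC134908.4 on the same strand and Gm26694 on the opposite strand, and both reach its exons. Whether the counting used strand is not given in the sources used here, so reads of Metrn and of these neighbors cannot be told apart.

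Promoter sequence was at hand for 6 of the 9 genes (RefSeq, GRCm38.p6). The 250 bases before the start of Fndc5 (chr4:129136749-129136998, plus strand) and of Apln (chrX:48034854-48035103, minus strand) are shown because both genes stood far higher in heart than in quadriceps. Capitals mark the E-box letters CANNTG and the letters ACGTG, a form of the core bound by hypoxia-inducible factors, each searched on both strands. Other forms of this core were not searched.
Fndc5: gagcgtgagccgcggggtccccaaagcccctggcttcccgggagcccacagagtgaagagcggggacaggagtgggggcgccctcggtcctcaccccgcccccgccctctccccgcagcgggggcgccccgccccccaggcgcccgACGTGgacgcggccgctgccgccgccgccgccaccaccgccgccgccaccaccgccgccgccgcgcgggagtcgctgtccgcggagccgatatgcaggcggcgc
Apln: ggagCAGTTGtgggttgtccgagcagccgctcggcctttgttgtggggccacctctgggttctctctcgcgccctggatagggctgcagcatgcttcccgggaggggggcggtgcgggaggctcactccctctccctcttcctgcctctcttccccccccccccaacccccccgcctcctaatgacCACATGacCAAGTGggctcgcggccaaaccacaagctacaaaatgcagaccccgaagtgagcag
The Fndc5 window was 80.8% G and C and held ACGTG at 1 place and no E-box. The Apln window was 65.2% G and C, held an E-box at 3 places and had no ACGTG. An E-box was present in 66.2% of 32851 promoter windows of the same length and ACGTG in 16.6%, so these matches describe the sequences and show no binding.

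The markers of both tissues followed the labels. All 8 markers of skeletal muscle fibers were higher in quadriceps and all 8 of cardiac muscle were higher in heart, and Nkx2-5, a cardiac transcription factor, had no count in any quadriceps library. The heart libraries differed in Myl7, an atrial myosin light chain, which stood at 43.6, 3.26 and 0.07 CPM (counts scaled to a common library size after TMM) in libraries 1, 2 and 3. Adipocyte markers differed among the quadriceps libraries, with summed levels of 131, 56.4 and 17.6 CPM, and were at 0.49 to 1.93 CPM in heart. The summed level of 8 endothelial markers was 514 to 555 CPM in heart and 158 to 185 CPM in quadriceps. The totals were 33102826 to 38382751 counts in heart, 23383452 to 32989108 in sham quadriceps, and 48614494 and 48999600 in TAC libraries 1 and 2. In bulk tissue, fewer cells of a type and less RNA per cell cannot be told apart.

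Levels were compared between genes per length, as RPKM, which divides counts by transcript length and library total (mean ± SD, n = 3). In heart, Fndc5 stood first at 138.5 ± 4.66 RPKM. Nampt followed at 39.2 ± 3.26, then Aplnr at 11.1 ± 2.04, Il15 at 8.21 ± 1.84, Crhr2 at 5.18 ± 0.20, Apln at 3.65 ± 0.78, Metrn at 2.62 ± 0.38 and Metrnl at 1.61 ± 0.20 RPKM, with Ucn2 last at 0.010 ± 0.017. Of the neighbors in this order, Aplnr and Il15 overlapped in their libraries and the others did not.

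In quadriceps the order was another. Nampt at 25.7 ± 6.32 RPKM and Fndc5 at 24.5 ± 5.07 RPKM shared the top and overlapped. Il15 at 6.49 ± 2.81 and Crhr2 at 4.18 ± 0.20 RPKM came next and overlapped with each other, and Metrn followed at 2.94 ± 0.30. The last 4, Aplnr at 0.77 ± 0.28, Ucn2 at 0.69 ± 0.30, Metrnl at 0.37 ± 0.14 and Apln at 0.25 ± 0.16 RPKM, each overlapped with the next. All 9 places in each tissue stayed as they were with CPM per kilobase after TMM scaling in place of RPKM.

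**Figure D1:**
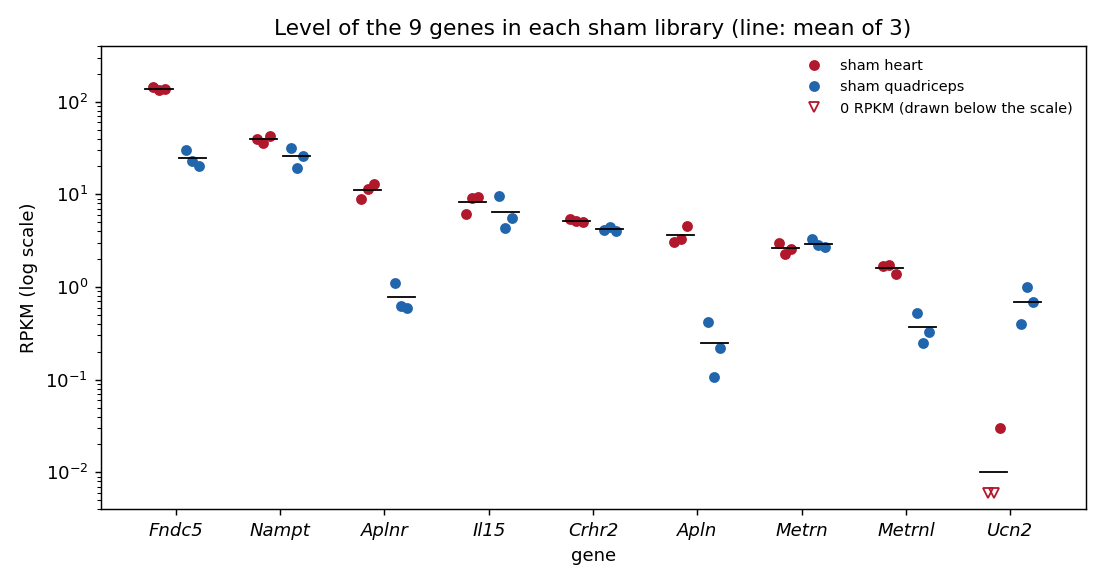
RPKM (log scale) of the 9 genes in the 3 sham heart and 3 sham quadriceps libraries, with a line at each mean. On this scale, which divides by the library total, Fndc5, Nampt, Aplnr, Crhr2, Apln and Metrnl are separated between the tissues with heart above, Ucn2 is separated with quadriceps above, Il15 and Metrn overlap, and open triangles mark the heart libraries in which Ucn2 had no count.

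Quadriceps and heart of sham mice were tested against each other over 24280 transcripts (edgeR, quasi-likelihood, TMM scaling), and a gene was called at a Benjamini-Hochberg adjusted p under 0.05. Metrn, Ucn2 and Crhr2 were higher in quadriceps, Fndc5, Metrnl, Apln and Aplnr were higher in heart, and Il15 and Nampt did not pass. Of all transcripts tested, 32.2% were called higher and 34.4% lower in quadriceps, and 66.6% in all, beside 7 of the 9 genes. The scaling bore on these calls, since the median log2 fold change of all transcripts was -0.06 with TMM and -0.80 when counts were divided by the library totals. With totals, Ucn2 alone was called higher and 6 genes were called lower, while 13.3% of all transcripts were called higher and 62.6% lower, 76.0% in all. Under the rule of the study for muscle-enriched transcripts, a log2 fold change over 2 at an unadjusted p under 0.05, Ucn2 alone passed, against 7.00% of all transcripts.

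Counts of Fndc5, the source of irisin, were 14675, 14250 and 12505 in heart against 2709, 2080 and 1311 in quadriceps. The groups were far apart, at 294.2 ± 12.7 CPM in heart and 86.9 ± 12.8 CPM in quadriceps. Fndc5 was thus 3.38-fold higher in heart (log2 fold change of quadriceps over heart -1.76, SE 0.13, adjusted p = 2.51e-06), and -2.50 (SE 0.16) with library totals. Relative to Nampt in the same library, which needs no scaling, Fndc5 had 1.98 to 2.29 counts for each Nampt count in heart and 0.475 to 0.723 in quadriceps (exact permutation test, two-sided p = 0.1, the smallest that 3 against 3 libraries allow).

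Counts of Il15 were 288, 445 and 399 in heart against 402, 181 and 164 in quadriceps. The quadriceps libraries spread more widely, with library 1 at 14.8 CPM and the other two at 7.57 and 9.27 CPM, and they overlapped the heart libraries. The log2 fold change of 0.40 (SE 0.25, adjusted p = 0.185) did not pass and turned to -0.34 (SE 0.30, adjusted p = 0.329) with library totals. Without quadriceps library 2 it was 0.60 and passed, with an adjusted p of 0.0475.

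The related Metrn and Metrnl differed in opposite directions after TMM scaling. Counts of Metrn were 152, 118 and 115 in heart against 145, 128 and 85 in quadriceps, and 2.74 ± 0.43 CPM against 5.16 ± 0.31 CPM, without overlap. It was 1.89-fold higher in quadriceps (log2 fold change 0.92, SE 0.15, adjusted p = 0.000560), but the value fell to 0.17 (SE 0.16, adjusted p = 0.343) with library totals. Counts of Metrnl were 155, 165 and 113 in heart against 42, 20 and 19 in quadriceps. It was 2.62-fold higher in heart (log2 fold change -1.39, SE 0.23, adjusted p = 0.000563), and -2.13 with totals. The ratio of Metrn to Metrnl counts within a library was 0.715 to 1.02 in heart and 3.45 to 6.40 in quadriceps, so the unequal distribution of this pair did not depend on the scaling (exact permutation test, two-sided p = 0.1).

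The apelin pair stood lowest in quadriceps relative to heart. Counts of Apln, the ligand, were 359, 402 and 473 in heart against 43, 11 and 16 in quadriceps. It was 8.76-fold higher in heart (log2 fold change -3.13, SE 0.32, adjusted p = 2.39e-05). Counts of Aplnr, its receptor, were 1185, 1563 and 1535 in heart against 128, 73 and 50 in quadriceps. It was 8.53-fold higher in heart (log2 fold change -3.09, SE 0.21, adjusted p = 1.55e-06). Every heart library lay above every quadriceps library for both genes, and with library totals the values were -3.86 and -3.83. The ratio of Apln to Aplnr counts overlapped between the tissues, at 0.257 to 0.308 in heart and 0.151 to 0.336 in quadriceps. All 8 endothelial markers were also lower in quadriceps, with a median log2 fold change of -1.43 and values from -2.13 to -0.84. The part of endothelial cells in the values of Apln and Aplnr was not tested.

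Counts of Ucn2, the urocortin 2 ligand, were 0, 0 and 1 in heart against 13, 33 and 16 in quadriceps, at 0.92 ± 0.45 CPM. All quadriceps libraries lay above all heart libraries at low counts in both. Over the summed counts, 62 against 1, the level was 127-fold higher in quadriceps with TMM sizes (95% exact Clopper-Pearson interval 22.0 to 5093) and 75.6-fold higher with library totals (13.1 to 3033), where the intervals cover counting error only. The adjusted p of the quasi-likelihood test was 7.80e-05 with TMM and 0.000270 with totals.

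The receptor Crhr2 was present in both tissues, and its counts were 538, 526 and 446 in heart against 360, 391 and 253 in quadriceps. TMM put it higher in quadriceps (log2 fold change 0.45, SE 0.11, adjusted p = 0.00567) and library totals put it lower (-0.31, SE 0.09, adjusted p = 0.0153), so the direction was set by the scaling. Both values lay above the median of all transcripts under their own scaling. The other 3 transcripts of Crhr2 gave log2 fold changes of 0.45 to 0.47 with TMM. The ligand was thus nearly absent from the heart libraries, where the receptor stood at 5.18 RPKM, and both were read in quadriceps.

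Counts of Nampt were 6663, 6213 and 6328 in heart against 4716, 2875 and 2760 in quadriceps. At 136.9 ± 12.2 CPM in heart and 149.9 ± 27.1 CPM in quadriceps the libraries overlapped. The log2 fold change was 0.13 (SE 0.15, adjusted p = 0.447) with TMM and -0.61 (SE 0.18, adjusted p = 0.0135) with library totals, so its direction and its call both depended on the scaling.

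**Figure D2:**
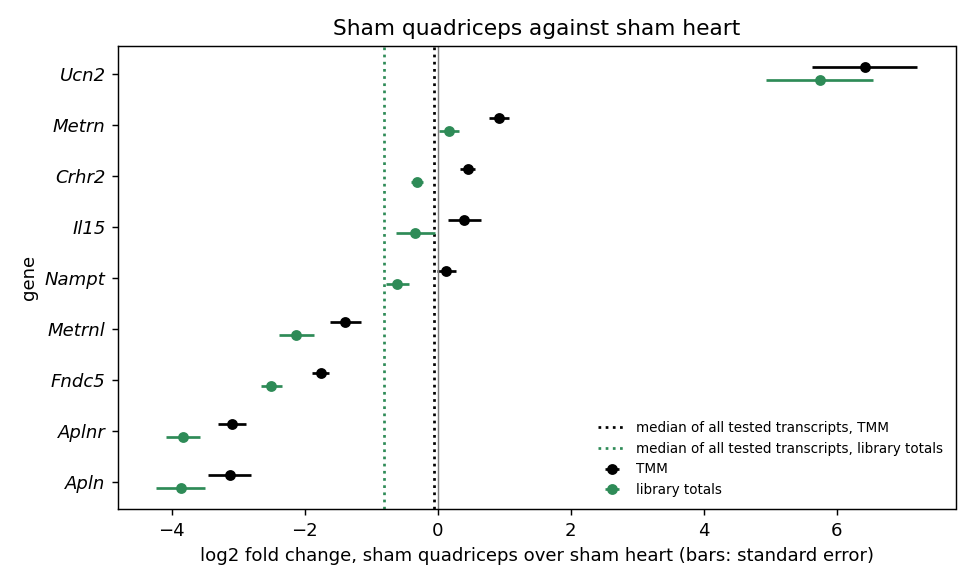
Log2 fold change of sham quadriceps over sham heart for the 9 genes (points, with bars of 1 standard error) under TMM scaling in black and library totals in green, with dotted lines at the median of all tested transcripts, -0.06 and -0.80. Ucn2 lies to the right and Metrnl, Fndc5, Aplnr and Apln to the left under both scalings, whereas Crhr2, Il15 and Nampt change side; the fitted value of Ucn2 rests on 1 count in heart.

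Genes that act with these signals were taken from 7 fixed lists. Of 59 listed genes, 58 were in the table and 50 were tested, 13 of which were higher and 22 lower in quadriceps, with a median log2 fold change of -0.45. With library totals 6 were higher and 37 lower, with a median of -1.20. The medians of all transcripts under the same scalings were -0.06 and -0.80. With TMM 32.2% of all transcripts were called higher and 34.4% lower, and with totals 13.3% and 62.6%. These shares also stand beside the counts of each list below.

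Of the 6 genes around irisin, 2 were higher and 3 lower. Itgav, the integrin subunit of the irisin receptor, was higher in quadriceps (log2 fold change 1.36, SE 0.11, adjusted p = 5.84e-06), while its partner subunit Itgb5 had a value of -0.05 (SE 0.10, adjusted p = 0.659). With library totals Itgav was still higher, at 0.61, and Itgb5 was lower, at -0.81 (adjusted p = 0.000138). Ppargc1b, a coactivator of mitochondrial genes, was lower in quadriceps, at -1.65. Both subunits and the ligand Fndc5 were thus detected in both tissues.

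Of the 8 genes around interleukin-15, 2 were higher and 3 lower. Il15ra, which presents the cytokine, had a log2 fold change of -0.01 (SE 0.17, adjusted p = 0.979) and -0.75 with library totals. Il2rg, the common chain of the signaling receptor, was lower in quadriceps at -1.98, and Il2rb, the chain shared with the interleukin-2 receptor, had at most 1 count in any quadriceps library and 11 in any heart library. Stat5b, a transcription factor below this receptor, was higher in quadriceps at 2.23 and Stat3 was lower at -1.71. Il2rg is a gene of leukocytes, and 5 of 6 macrophage and leukocyte markers were lower in quadriceps as well, with summed levels of 29.3 to 47.9 CPM against 68.8 to 72.9 CPM in heart. Their part in the value of Il2rg was not tested.

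Kit, a receptor tyrosine kinase described as the receptor of meteorin-like, was lower in quadriceps at -3.25, with 0.47 ± 0.13 CPM against 4.35 ± 0.53 CPM in heart. Kitl, which encodes stem cell factor, the known ligand of Kit, was lower at -1.49. Metrnl and Kit were thus both higher in heart, and both stayed so with library totals.

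Around apelin, 5 of 8 tested genes were lower in quadriceps and none was higher, where 34.4% of all transcripts were lower. They included Mme at -2.06, which encodes neprilysin, a protease of peptide hormones, Gnai2 at -1.78, an inhibitory G protein subunit, and Nos3 at -1.42, the endothelial nitric oxide synthase. Apela, the other ligand of Aplnr, had no count in any of the 6 libraries. With library totals all 8 were lower, where 62.6% of all transcripts were.

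Of the other ligands and the other receptor of the urocortin family, Ucn was low in both tissues, at 0.22 ± 0.01 CPM in quadriceps and 0.13 ± 0.09 CPM in heart (log2 fold change 0.69, SE 0.57, adjusted p = 0.304). Ucn3 and Crhr1 had no count in any library, and Crh had at most 5 counts in a quadriceps library and 2 in a heart library. Ucn2 was thus the ligand of this family with the most counts in quadriceps, and Crhr2 the only receptor with any.

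Of 14 tested genes of NAD metabolism, 4 were higher, 4 lower and 6 not called. Nmrk2, the muscle kinase that makes the same mononucleotide as Nampt from nicotinamide riboside, was higher in quadriceps at 4.58 (SE 0.39, adjusted p = 6.70e-06), with 115 ± 59.3 CPM against 4.79 ± 1.25 CPM. Naprt, which uses nicotinic acid, was lower at -1.86, and Bst1, which breaks NAD down, was lower at -1.68. Nmrk2 and Naprt kept their directions with library totals, at 3.79 and -2.61.

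Of 10 other exercise-linked secreted factors that were tested, 4 were higher and 5 lower in quadriceps. Mstn, the inhibitor of muscle growth myostatin, stood at 83.1 ± 16.1 CPM in quadriceps and 0.16 ± 0.04 CPM in heart. Ostn, which encodes the myokine musclin, stood at 4.60 ± 0.80 CPM in quadriceps and had at most 2 counts in any heart library. Gdf15, a stress cytokine, stood at 0.41 ± 0.26 CPM in heart and had at most 2 counts in any quadriceps library.

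TAC and sham quadriceps were compared with the same test over 586 genes of the restricted table, scaled by TMM over these genes, and a normalized count is a count brought to the average TMM-scaled size of the 6 libraries. Ucn2 and Nampt were higher after TAC, Il15 was lower, and Metrn did not pass. Of the 586 genes, 17.7% were called higher and 11.9% lower, 29.7% in all. In none of the 4 genes did the normalized counts of TAC and sham libraries overlap, but the RPKM of Nampt did. The share of the 586 genes without overlap is not given here, so this describes these genes alone. TMM centers the fold changes on the listed genes: their median log2 fold change was 0.03, and it was -0.63 when the library totals were used instead, which were known for 5 of the libraries. With totals, Il15 and Metrn were called lower and neither Ucn2 nor Nampt was called, while 3.41% of the listed genes were called higher and 30.7% lower, 34.1% in all. By the rule of the study, where the log2 fold change reaches 1 in either direction and the unadjusted p is under 0.05, Ucn2 and Il15 passed, against 24.1% of the listed genes.

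Sham counts of Ucn2 were 13, 33 and 16, against 50, 52 and 101 after TAC (libraries 1, 2 and 4, the order used throughout). These were 10.6, 33.3 and 22.0 normalized counts against 48.4, 50.9 and 101.1. All TAC libraries lay above all sham libraries, and TAC library 4 was the highest by far. Ucn2 was 3.06-fold higher after TAC (log2 fold change 1.62, SE 0.48, adjusted p = 0.0352). Without TAC library 4, TMM gave 1.11 (SE 0.46, adjusted p = 0.115) and the call was lost. Library totals on the same 5 libraries gave 0.59 (SE 0.45, adjusted p = 0.319), also without a call. Without sham library 1 or 3 the call was also lost, at 1.22 and 1.62 with adjusted p of 0.132 and 0.0907.

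Sham counts of Nampt were 4716, 2875 and 2760, against 8566, 6239 and 5872 after TAC. These were 3833, 2905 and 3795 normalized counts against 8297, 6105 and 5881. On this scale the lowest TAC library lay above the highest sham library, whereas as RPKM, which divides by the library total, TAC library 2 at 28.1 lay below sham library 1 at 31.9. Nampt was 1.93-fold higher after TAC (log2 fold change 0.95, SE 0.22, adjusted p = 0.0181). With library totals the value was 0.38 (SE 0.26, adjusted p = 0.277). The call was lost without any of the sham libraries 1, 2 or 3, with adjusted p of 0.0601, 0.0710 and 0.0597 and a log2 fold change no lower than 0.83.

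Sham counts of Il15 were 402, 181 and 164, against 54, 161 and 71 after TAC. These were 326.8, 182.9 and 225.5 normalized counts against 52.3, 157.6 and 71.1. All TAC libraries lay below all sham libraries, with TAC library 2 close to sham library 2. Il15 was 2.62-fold lower after TAC (log2 fold change -1.39, SE 0.43, adjusted p = 0.0427). With library totals it was -1.91 (SE 0.55, adjusted p = 0.0333). The call was kept without TAC library 2, at -1.99, and was lost without any other library, with values of -1.56 to -1.18 and adjusted p of 0.0669 to 0.129.

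Sham counts of Metrn were 145, 128 and 85, against 37, 102 and 76 after TAC. These were 117.9, 129.4 and 116.9 normalized counts against 35.8, 99.8 and 76.1. The sham libraries lay close together and all TAC libraries lay below them. The log2 fold change was -0.78 (SE 0.36, adjusted p = 0.132). With library totals it was -1.49 (SE 0.44, adjusted p = 0.0363), and without TAC library 2 it was -1.12 with an adjusted p of 0.0429.

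**Figure D3:**
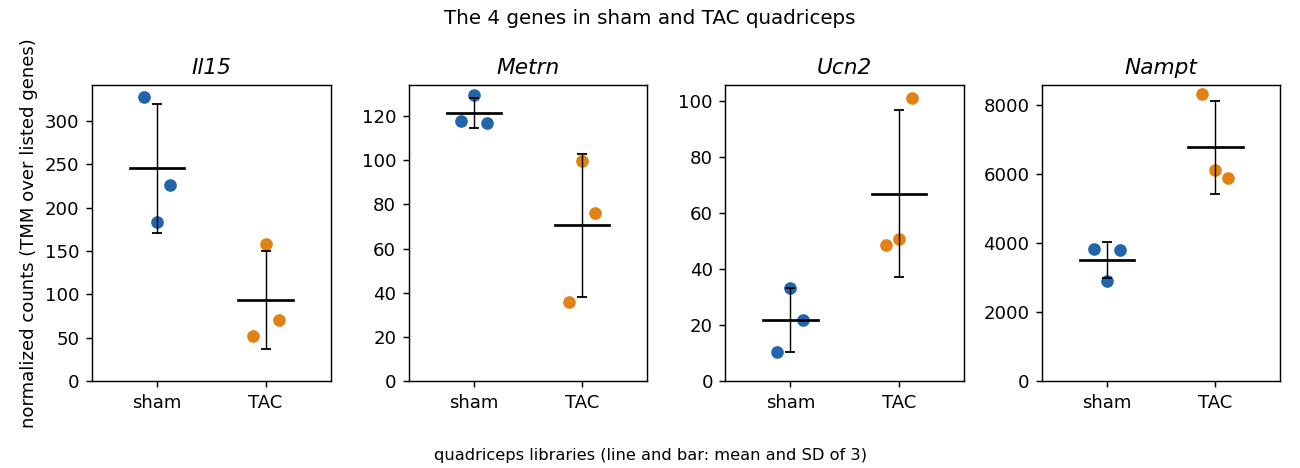
Normalized counts (TMM over the listed genes) of Il15, Metrn, Ucn2 and Nampt in the 3 sham and 3 TAC quadriceps libraries, with a line at the mean and a bar of 1 SD. On this scale Il15 and Metrn lie lower and Ucn2 and Nampt higher in all TAC libraries than in all sham libraries, for example 5881 to 8297 against 2905 to 3833 for Nampt. Metrn was not called, Nampt overlaps as RPKM, and the share of all listed genes without overlap is not given here.

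**Figure D4:**
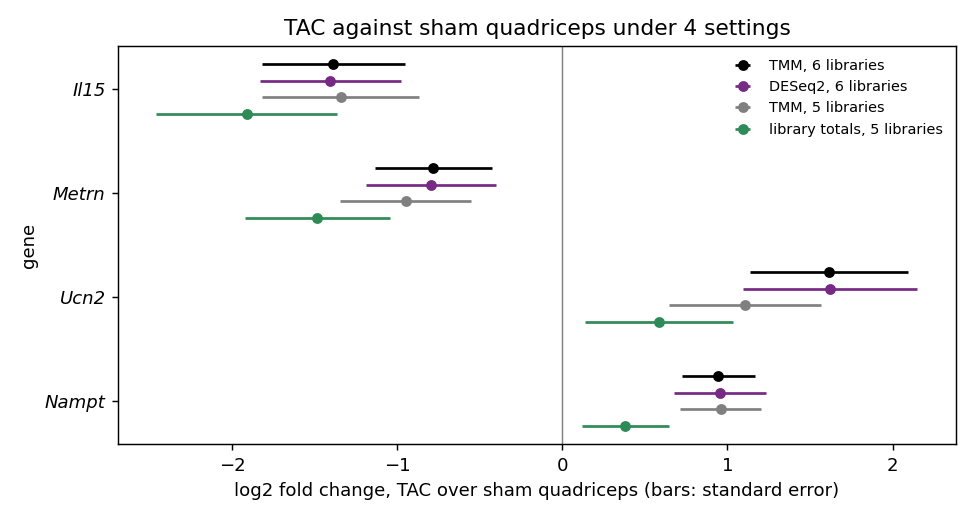
Log2 fold change of TAC over sham quadriceps (points, with bars of 1 standard error) with TMM and with DESeq2 on 6 libraries, and with TMM and with library totals on 5. The sign of each gene was the same in all 4 settings, and library totals moved all values down, Ucn2 from 1.11 to 0.59 and Nampt from 0.96 to 0.38 on the same 5 libraries.

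Ratios within a library do not depend on the scaling. For each count of Il15, Nampt had 11.7 to 16.8 counts in sham and 38.8 to 158.6 in TAC libraries, and Ucn2 had 0.0323 to 0.182 in sham and 0.323 to 1.42 in TAC libraries. For each count of Metrn, Nampt had 22.5 to 32.5 in sham and 61.2 to 231.5 in TAC libraries, and Ucn2 had 0.0897 to 0.258 in sham and 0.510 to 1.35 in TAC libraries. None of these 4 ratios overlapped between the groups (exact permutation test, two-sided p = 0.1 each, unadjusted over 6 ratios). The ratios of Nampt to Ucn2 and of Il15 to Metrn overlapped, with p of 0.4 and 0.3. Ucn2 and Nampt thus shifted upward against Il15 and Metrn whatever the scaling, and a ratio does not show which of its genes moved. These 4 ratios set the genes that stood higher after TAC over those that stood lower in the same libraries. Their separation was therefore likely from the start and adds no separate support. The share of other gene pairs without overlap is not given here.

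**Figure D5:**
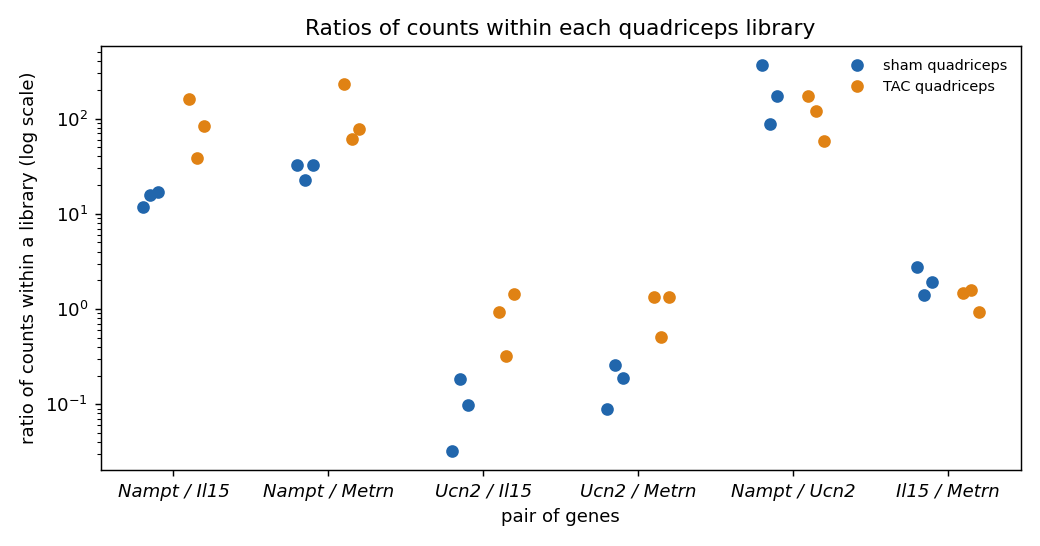
Ratio of the counts of 2 genes within each quadriceps library (log scale), for 6 pairs, in 3 sham and 3 TAC libraries. The first 4 pairs, which set Nampt or Ucn2 over Il15 or Metrn, are separated between the groups, and the last 2 pairs overlap.

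Several cell type markers in the restricted table moved with these genes. Pecam1 and Vwf, the 2 endothelial markers listed, were higher after TAC, with summed normalized counts of 1504 to 1589 against 917 to 1048 in sham, but not with library totals, and Pecam1 kept its call without TAC library 2 alone and Vwf without TAC library 1 alone. Lyz2, the macrophage marker listed, was lower, at 195 to 301 against 485 to 705, a call that was lost without sham library 3 (adjusted p = 0.0570). Of 4 fibroblast markers, Col1a1, Col3a1 and Lum were lower and Dcn was not called. The 3 adipocyte markers overlapped between the groups, with sums of 315 to 2302 in sham and 415 to 2860 in TAC libraries. The part of these cell types in the values of Il15, Metrn, Ucn2 and Nampt was not tested.

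Of the listed partners, 7 were in the restricted table, and 1 was higher, 1 lower and 5 not called. With library totals none was higher and 2 were lower, Fstl1 and Sparc, a matrix glycoprotein (-1.08, adjusted p = 0.0127, against -0.33 and 0.255 with TMM), where 30.7% of the listed genes were lower. Mstn was higher after TAC (log2 fold change 1.37, SE 0.44, adjusted p = 0.0456), at 5068 ± 3381 normalized counts against 1963 ± 443, and it was not called with library totals (1.06, adjusted p = 0.0531). Its call was also lost without TAC library 1, at 0.61 (adjusted p = 0.117), and without any sham library, with adjusted p of 0.162, 0.0824 and 0.115. Fstl1, a secreted glycoprotein, was lower at -1.44 (SE 0.24, adjusted p = 0.00676). Kitl had a value of 0.51 (SE 0.33, adjusted p = 0.276). No gene of the apelin, interleukin-15 or NAD lists other than the members was in this table.

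Over all 9 libraries and the 586 genes, the genes whose log2 levels followed each member most closely were found by Pearson's r, as a description. For Il15 they were Tnfsf10 (r = 0.942), Tfrc (0.932) and Frzb (0.884), and for Metrn they were Igfbp5 (0.956), Col11a2 (0.948) and Bmper (0.887). For Nampt they were Vldlr (0.973), Masp2 (0.968) and Ahnak (0.948). For Ucn2 they were Aldoa (0.994), Gfer (0.993) and Aimp1 (0.992). The points share 3 groups of libraries, and Ucn2, near 0 in all heart libraries, takes its r mostly from the gap between the tissues.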

How the data were processed

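RNA of 3 sham heart, 3 sham quadriceps and 3 TAC quadriceps samples was sequenced as single-end reads from stranded ScriptSeq v2 libraries. After trimming (Trim Galore!) and removal of short reads, the authors aligned with STAR to mm10 and used Rsubread to count reads on RefSeq transcripts, and these raw counts were deposited. RPKM values, in which counts are scaled by transcript length and library total, were deposited beside them. The fold changes and p-values of the authors' own edgeR comparisons were not used. The third TAC library carries the number 4 in the table and was used as a replicate without pairing. Its RPKM column could not be tied to a sample label, so 1 column was left unused and library totals were known for 5 of the quadriceps libraries. The table of TAC against sham is restricted to genes with an extracellular Gene Ontology term. Sham quadriceps libraries serve both comparisons.

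The quasi-likelihood test of edgeR 4.0.16 (R 4.3.3, TMM) was run on features whose counts exceeded 5 in 2 or more libraries, with Benjamini-Hochberg adjustment over all features tested. Nothing in the sources says that samples of a group came from separate pools or runs, so p-values measure the spread between these samples. The alternatives were DESeq2 1.42.0, library totals, other filters, limma 3.58.1 on log2 RPKM (pseudocounts 0.5 and 0.1), all 9 libraries in 1 fit, the replicate number as a block, 1 transcript per gene and leaving out each library. Added once the data had been seen were TMM on the 5 libraries with totals, and no block on the 4 quadriceps libraries with numbers 1 and 2. The test was checked on simulated counts in which 200 features changed by a log2 fold change of 2, up or down at random. It recovered 99.5% of them in TAC against sham and 99.0% in quadriceps against heart. False calls were 1.49% and 2.46% of the calls. The simulation put in no shift in composition between the groups, so it does not bear on the choice of scaling. The planted change was also larger than the main value of any of the 4 genes in TAC against sham, the largest being 1.62 for Ucn2. The share recovered thus does not describe how well changes of their size are found. Replicate libraries differed by more than sampling noise (chi-square per degree of freedom at least 7.10 over 12 pairs, with the sham quadriceps pairs counted once in each comparison). The genes, the lists and the rule for named genes (partners with an adjusted p under 0.05 and a log2 fold change of at least 1, at most 3 per list, plus direct ligands and receptors) were chosen with earlier results of these data known. Likeness used log2 CPM plus 1. Positions come from GENCODE vM21, and sequence and figures were made with Python 3.11.15 and matplotlib 3.10.9.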

Additional observations from a re-analysis of the deposited data

How the results depend on the processing

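In quadriceps against heart, Fndc5, Metrnl, Apln, Aplnr and Ucn2 kept direction and call in all 14 alternatives. Library totals and limma on log2 RPKM (pseudocount 0.5 and 0.1) turned Il15 to -0.34, -0.37 and -0.39, Crhr2 to -0.31, -0.28 and -0.30 and Nampt to -0.61, -0.62 and -0.63, and took the call from Metrn (0.17, 0.14 and 0.17). By construction these settings do not center the fold changes. The rule of the study, which counts only genes higher in quadriceps, called 1 gene, where the adjusted p called 3 higher and 4 lower. Of all transcripts, 7.00% passed that rule and 32.2% were called higher by the adjusted p. Leaving out 1 library gave 0.081 to 0.60 for Il15, 0.81 to 1.04 for Metrn, 0.36 to 0.55 for Crhr2 and 0.034 to 0.27 for Nampt. Ucn2 ranged from 5.93 to 7.93, the highest without heart library 3, which holds its 1 count in heart, and Apln from -3.72, without quadriceps library 1, to -2.76.

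In TAC against sham, no gene changed sign. Metrn was called with library totals (-1.49) and limma (-1.22 and -1.54). Ucn2 lost its call with totals (0.59), limma (0.40 and 0.60), TMM on the same 5 libraries (1.11) and the 4 libraries numbered 1 and 2 (1.2). Nampt lost it with totals (0.38), limma (0.39 and 0.39) and those 4 libraries (1.10), and Il15 with TMM on 5 libraries (-1.34) and the 4 libraries (-1.28). Leaving out 1 library gave -1.99 to -1.18 for Il15, -1.12 to -0.53 for Metrn, 1.11 to 2.08 for Ucn2 and 0.71 to 1.01 for Nampt. The number called, 3, was then 0 to 4, and it was 1 with TMM on 5 libraries and 0 with the 4 libraries. Of the partners, 2 were called and 1 to 3 when a library was left out. The shares of all listed genes called in these settings, and with the replicate block below, are not given here. Whether fewer calls were particular to these genes can thus not be told. Apart from the scaling, the cause was not tested.

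The replicate block could be fitted in TAC against sham with the 4 libraries numbered 1 and 2. It gave 1.34 for Ucn2 and 1.09 for Nampt, both without a call, and 1 gene called, Il15 at -1.40, where the same 4 libraries without the block gave 0 and the 6 libraries 3. The labels do not tie the numbers to mice, so the numbers were not taken as pairs. Deviations of same-numbered libraries from their group means hardly correlated (r = 0.061 there, and 0.011, -0.113 and -0.032 for heart and quadriceps). With so few libraries these values cannot show whether samples came from the same mouse. The block changed no call of the 9 genes between the tissues. Depth limits Ucn2 most, at 1 count over the heart libraries.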
